A study of Mus musculus with 48 samples.

Results

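The cells described here are the Wnt6-positive epithelial barcodes of the V580 day 6 culture, chosen from the table of unique molecular identifiers (UMIs, 1 per captured RNA molecule) of 1 10x Genomics single-cell library. A barcode was a member where at least 200 genes were detected, where each of Wnt6, Epcam and Cldn7 had at least 1 UMI, and where fewer than 3 of the endoderm genes Lama1, Cubn, Sox17 and Foxa2 had a UMI. Of the 15412 barcodes in the table, all passed the gene limit, 3470 had a Wnt6 UMI, 5403 an Epcam UMI and 3814 a Cldn7 UMI. All 3 genes were detected in 1220 barcodes, of which 139 were left out for 3 or 4 endoderm genes, so that 1081 barcodes, 7.01% of the table, were members and 14331 were not. Since the values of these 7 genes chose the members, their levels in this library are given as a description.

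The study induced C57BL/6 mouse embryonic stem cells (ESCs) toward gonadal somatic cell-like cells (GSCLCs) with V580, the combination of Vitamin C and AM580, an agonist of the retinoic acid receptors. According to the study's methods the ESCs were female, feeder cells were removed by adherence, and cells positive for SSEA1, a surface marker of undifferentiated and germ cells, were depleted by magnetic sorting. The 10x library came from day 6 of V580, and bulk RNA-seq libraries, 3 per group, came from V580 at days 4, 6, 8 and 10 (D4, D6, D8, D10) and from gonads of female C57BL/6 embryos at E12.5 (E12.5_GC). Untreated controls (Con) and V580 cultures at 24 h and 48 h, 2 libraries each, were read for the rule genes only.

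Wnt6 is a secreted ligand of the Wnt family, which binds Frizzled receptors and LRP co-receptors and stabilises beta-catenin or acts through other routes. It is known from simple and stratified epithelia of the embryo, such as surface ectoderm, and from supporting cells of the fetal ovary. Epcam is a surface adhesion protein of epithelia and Cldn7 is a claudin of the tight junction, and neither is a usual marker of gonadal stroma.

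Members were deep barcodes. Their median was 16038 UMIs and 4340 genes, with UMIs from 7125 at the 10th to 30555 at the 90th percentile, whereas the other barcodes had a median of 8222 UMIs and 2807 genes. The median share of mitochondrial UMIs was 3.71% in members and 3.34% in the others, and 0 members were over 40%. A rule that asks for UMIs of 3 genes favours deep barcodes, so shares of barcodes with a UMI are given below after each barcode was thinned at random to 7000 UMIs, a depth that 975 members and 7510 other barcodes reached. At that depth 638 of the 975 members still had the UMIs the rule asks for. The library is a single one, all barcodes carrying the same suffix, so no test between members and others was made. Levels are CPM (summed UMIs of a gene per 1000000 UMIs of the group), and intervals are exact 95% intervals, Poisson for CPM and binomial for ratios and shares, that cover counting error only.

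Members were also set against 3 other groups of the same library. The first held 870 barcodes with Epcam and Cldn7 but no Wnt6 UMI, the second 1158 with Wnt6 but neither Epcam nor Cldn7, and the third 953 with 3 or 4 of the endoderm genes. Their median depths were 11152, 11656 and 23550 UMIs. The first 2 groups, like the members, had fewer than 3 of the endoderm genes.

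Within the members Wnt6 ran from 1 UMI, the lowest the rule admits, to 43, with a median of 4 and a 90th percentile of 12. Exactly 1 Wnt6 UMI was seen in 251 members, 2 to 4 in 380 and 5 or more in 450. Epcam had a median of 9 UMIs and Cldn7 of 4, and 227 members had a single Cldn7 UMI. Summed levels of members and of other barcodes were 299.2 and 33.3 CPM for Wnt6, 667 and 114 CPM for Epcam, and 334 and 89.6 CPM for Cldn7. Members held 11.9% of all UMIs of the table but 54.8% (53.9 to 55.8) of the Wnt6 UMIs, 44.1% of Epcam and 33.5% of Cldn7.

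Among barcodes with all 3 genes, 471 had no endoderm gene detected, 397 had 1 and 213 had 2, just inside the limit; 86 barcodes with 3 and 53 with 4 lay just outside. Wnt6 was 333.2, 303.5 and 246.3 CPM at 0, 1 and 2 endoderm genes and 208.5 and 63.4 CPM at 3 and 4. Col4a1, a basement membrane collagen made in large amounts by parietal endoderm, was 190.3, 231.6 and 361.4 CPM inside the limit and 986.6 and 2018 CPM outside it. Wfdc2, a secreted protease inhibitor of epithelia, was 567.5, 917.9 and 1336 CPM inside and 1139 and 302.4 CPM outside. The limit thus ran through a series that was graded in Wnt6 and Col4a1 but not in Wfdc2. Barcodes with 3 endoderm genes were nearer to members with 2 of them than to barcodes with 4 in Wnt6 and Wfdc2. Median depth rose along the series, at 14141, 16444 and 20329 UMIs inside the limit and 27608 and 37838 UMIs outside it. The part of depth in these levels was not tested.

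Positions are those of the GENCODE vM21 annotation of GRCm38, the build called mm10. Wnt6 lies on the plus strand at chr1:74771892-74785322, and Wnt10a, a further Wnt ligand that is described below, starts downstream of it on the same strand at chr1:74791516-74804179. Epcam lies at chr17:87635979-87651129 and Cldn7 at chr11:69964779-69967885, both on the plus strand.

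Of 9065 genes with at least 10 CPM in members or in the others, 333 (3.67%) were at least 2-fold higher in members and 204 (2.25%) at least 2-fold lower. The 20 genes of largest ratio, among those with a UMI in at least 25% of members and apart from the rule genes, included Upk1a, a uroplakin of the urothelium, Rab25, a small GTPase of epithelial membrane recycling, and Grhl2, a transcription factor that maintains epithelial junction genes. Upk1a was at 42.9 CPM (40.01 to 45.9) in members and 2.26 CPM (2.02 to 2.52) in other barcodes, 18.9-fold (16.6 to 21.6) higher. Rab25 was at 31.4 and 2.19 CPM (14.3-fold) and Grhl2 at 26.7 and 2.24 CPM (11.9-fold). Members therefore held 71.9% (69.2 to 74.5) of all Upk1a UMIs of the table, 65.9% of Rab25 and 61.6% of Grhl2. The library cluster that held most members (below) also had 365 other barcodes. Upk1a was at 59.4 CPM in its members and 22.2 CPM in these others. Rab25 was likewise at 44.2 and 21.6 CPM, and Grhl2 at 35.1 and 16.6 CPM.

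With members limited to the 471 barcodes without an endoderm gene, and the remaining members counted among the rest, the ratios (of CPM + 0.1) were 8.23-fold for Upk1a, 5.99-fold for Rab25 and 6.75-fold for Grhl2, and 11 of the 20 genes moved by over 1.5 times. With the remaining members left out of both groups, a choice added after the values were seen, they were 19.2-fold, 12.4-fold and 12.2-fold. Among barcodes of at least 7000 UMIs, each thinned to that number, Upk1a was 27.6-fold higher. This setting also leaves out the shallower barcodes, 106 members and 6821 others, so the barcodes compared differ from those of the main ratio.

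Claudin and cadherin genes of the tight and adherens junction followed. Cldn3 stood at 157 and 14.2 CPM in members and others (11-fold, 10.4 to 11.7), Cldn4 at 74.7 and 8.96 CPM (8.34-fold), and Cdh1, which encodes E-cadherin, at 92.1 and 15.9 CPM (5.79-fold). The most abundant gene among the 20 of largest ratio was Wfdc2, at 902 and 94.2 CPM (9.58-fold, 9.37 to 9.8). In members without an endoderm gene Wfdc2 was 3.27-fold higher with the remaining members among the rest, and 6.02-fold higher with them left out. Other epithelial genes of this group were Ppl, a desmosomal plakin (28.6 and 3.05 CPM), Spint1, an inhibitor of membrane serine proteases (103.6 and 16.6 CPM), Sfn, the epithelial 14-3-3 protein (74.4 and 12.2 CPM), Espn, an actin-bundling protein (112.9 and 19.1 CPM), and Erbb3, a neuregulin receptor (17.9 and 2.6 CPM). Adh1 and Aldh1a1, enzymes that oxidise retinol and retinaldehyde, were 6.59-fold (64.5 and 9.8 CPM) and 5.29-fold (39.5 and 7.48 CPM) higher. The group also held the ligand Wnt7b (below), Bspry, the membrane protein Cdcp1, the transporter Slc16a12 and 4631405K08Rik, at 5.3-fold to 8.36-fold.

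**Figure D1:**
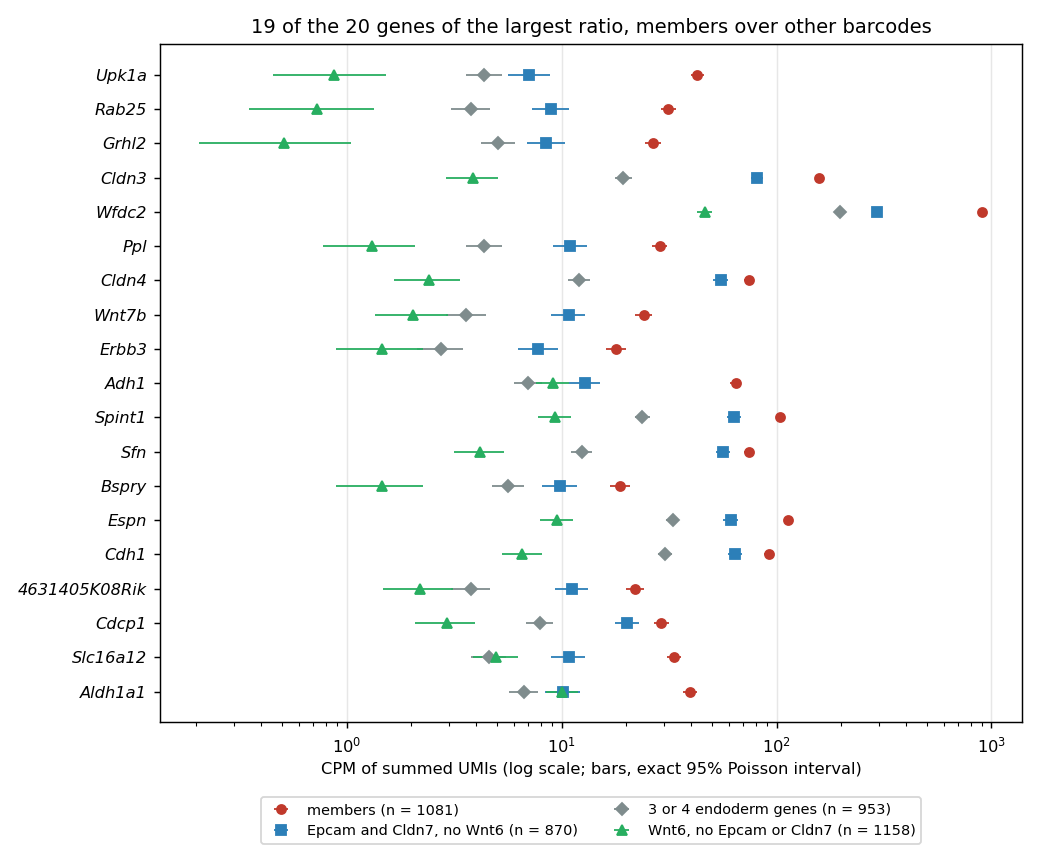
CPM of summed UMIs on a log axis for 19 of the 20 genes of largest ratio, in members (n = 1081) and in the 3 comparison groups, with exact 95% Poisson intervals as bars. In each gene the member point lies farthest right, and the group with Wnt6 but neither Epcam nor Cldn7 is lowest in all but Adh1, Slc16a12 and Aldh1a1, such as 0.876 CPM for Upk1a.

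At equal depth, Upk1a was detected in 22.7% of members and 1.08% of other barcodes, Cldn3 in 54.6% and 5.21%, and Wfdc2 in 77.3% and 23%. In the barcodes with Wnt6 but neither Epcam nor Cldn7, thinned likewise, the shares were 0.627% for Upk1a, 1.63% for Cldn3 and 20.4% for Wfdc2. The share of Wfdc2 in the other barcodes was therefore close to that in barcodes without a junction gene of the rule, and whether the Wfdc2 UMIs there are free RNA was not tested. Median depths before thinning were 16038 UMIs in members and 11656 UMIs in the barcodes with Wnt6 only. Before thinning, Upk1a was detected in 36.0% of members and 1.68% of others.

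Members were next set against the epithelial barcodes that lacked a Wnt6 UMI, which lay largely in other clusters of the library (described below). The cluster that held 687 of the 1081 members (63.6%) held 164 of these 870 barcodes (18.9%). A further 197 were in a cluster with Rhox9 among its leading genes, 113 in one with S100g and 69 in one with the endoderm gene Cubn. Over all clusters Upk1a was 6.06-fold (4.81 to 7.72) higher in members than in barcodes with Epcam and Cldn7 only, Adh1 5.03-fold (4.24 to 6.02), Aldh1a1 3.89-fold and Wfdc2 3.07-fold (2.96 to 3.19). Cldn4 was 1.36-fold (1.23 to 1.49) higher, and Gata3, a transcription factor of surface ectoderm, trophoblast and nephric duct, had a ratio of 1.01 (0.91 to 1.12). Krt8 and Krt18, the keratin pair of simple epithelia, had ratios of 0.871 and 0.964. Within the main cluster, a comparison added after the values were seen, the ratios were smaller for Upk1a at 2.85-fold (2.18 to 3.78), Adh1 at 3.13-fold (2.49 to 3.98), Aldh1a1 at 2.35-fold (1.82 to 3.06) and Wfdc2 at 1.54-fold (1.47 to 1.61). Cldn4 stood there at 1.19-fold (1.03 to 1.37) and Gata3 at 1.05 (0.885 to 1.24). Krt8 and Krt18 turned to the other side of 1, at 1.30 (1.24 to 1.37) and 1.04 (1.01 to 1.08).

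The 10 genes of smallest ratio were sought among those with a UMI in at least 25% of the other barcodes. Lama1, which the rule used, came first. Col1a1, Col3a1 and Col1a2, the fibrillar collagens of stroma, were at 28.8, 38.7 and 64 CPM in members and at 158, 186 and 224 CPM in the others, 5.49-fold, 4.8-fold and 3.5-fold lower. Ptn, a heparin-binding growth factor, was 4.3-fold (4.16 to 4.44) lower at 197 and 847 CPM, and Zeb1, a repressor of epithelial genes, 3.41-fold (3.08 to 3.79) lower at 19.9 and 67.8 CPM. Kdelr3, a retrieval receptor of the endoplasmic reticulum, the coagulation inhibitor Tfpi, Col4a1 and the carbonic anhydrase Car4 were 3.69-fold, 3.49-fold, 3.28-fold and 3.25-fold lower. Against barcodes with Wnt6 alone, Col4a1 and Tfpi had ratios of 1.1 and 1.01, whereas Col1a1 had 0.172 (0.157 to 0.189). With the members of the main cluster only, 7 of the 9 genes besides Lama1 moved by over 1.5 times, all further from the other barcodes, such as Col1a1 to 11.5-fold and Ptn to 9.43-fold lower.

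The 40 genes of largest ratio were also looked up among RefSeq promoters of GRCm38.p6, windows of 300 bases from 250 before to 50 after the start of a transcript. Of the 40 genes, 27 had an entry, with 37 promoters. Both strands were searched for AACCNGTT, the core that Grainyhead-like (GRHL) factors bind, for GCCNNNGGC, bound by TFAP2 factors, and for AGATAA, bound by GATA factors. The sequences below are shown because Wnt6 and Epcam define the cells and because Rab25 and Sfn were the 2 genes of the 27 with a GRHL match. Capitals mark the match (TFAP2 in Wnt6, GRHL in Rab25 and Sfn), each of these promoters holding 1 match and Epcam none of the 3 motifs, and each sequence is written 5′ to 3′ on the strand of the gene.
Wnt6, chr1:74771642-74771941, plus strand: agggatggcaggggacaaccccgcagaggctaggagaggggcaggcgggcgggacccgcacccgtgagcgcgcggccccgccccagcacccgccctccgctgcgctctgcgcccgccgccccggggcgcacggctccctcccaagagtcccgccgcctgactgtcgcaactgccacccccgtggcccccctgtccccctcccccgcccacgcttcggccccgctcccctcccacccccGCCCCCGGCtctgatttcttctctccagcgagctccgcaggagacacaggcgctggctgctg
Epcam, chr17:87635729-87636028, plus strand: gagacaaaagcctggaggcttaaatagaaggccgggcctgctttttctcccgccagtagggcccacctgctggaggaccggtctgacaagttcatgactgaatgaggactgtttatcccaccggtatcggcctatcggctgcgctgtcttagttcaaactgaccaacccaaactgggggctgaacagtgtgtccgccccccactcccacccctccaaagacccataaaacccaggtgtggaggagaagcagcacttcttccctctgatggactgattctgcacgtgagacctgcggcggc
Rab25, chr3:88548230-88548529, minus strand: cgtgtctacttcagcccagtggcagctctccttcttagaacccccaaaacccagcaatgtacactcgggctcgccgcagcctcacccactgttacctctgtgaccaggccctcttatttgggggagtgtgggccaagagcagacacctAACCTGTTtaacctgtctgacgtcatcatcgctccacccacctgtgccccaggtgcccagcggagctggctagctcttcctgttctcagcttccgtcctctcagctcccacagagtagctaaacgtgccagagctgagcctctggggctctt
Sfn, chr4:133602119-133602418, minus strand: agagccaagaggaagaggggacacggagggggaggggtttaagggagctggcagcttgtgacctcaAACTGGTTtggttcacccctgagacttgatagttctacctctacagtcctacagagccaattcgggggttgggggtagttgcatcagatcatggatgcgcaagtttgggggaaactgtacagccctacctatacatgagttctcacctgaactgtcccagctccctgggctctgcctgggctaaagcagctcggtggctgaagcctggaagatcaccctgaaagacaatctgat

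The GRHL match of Rab25 lies 102 to 95 bases before the transcript start, that of Sfn 184 to 177 bases before it, and the TFAP2 match of Wnt6 12 to 4 bases before it. GRHL letters were in 5.41% of the 37 promoters against 2.09% of all 32851 promoters, TFAP2 letters in 27% (10 promoters of 9 genes, among them Cldn3, Gata3, Krt7, Spint1 and Wfdc2) against 16.6%, and GATA letters in 5.41% (Adh1 and Aldh1a1) against 11.2%. A match describes letters in a window and no binding was measured.

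Epithelial genes were higher as a list. Of 33 genes of epithelial junctions and their regulators, chosen apart from the rule genes, 29 reached 10 CPM. Of these, 24 were at least 2-fold higher in members and 0 lower. The background, the share over all 9065 genes, was 3.67% higher and 2.25% lower. The list's median log2 ratio was 2.11, against 0.03 over all 9065 genes. At 7000 UMIs, 93.2% of members had at least 3 of the 33 genes detected, against 35.1% of other barcodes, 75.2% of barcodes with Epcam and Cldn7 only and 30.8% of barcodes with Wnt6 only. Of 6 keratins at 10 CPM 5 were higher (background 3.67%). Among these, Krt7 was at 216 and 53 CPM and Krt8 at 801 and 346 CPM. Krt18 was at 1223 and 582 CPM and Krt19 at 561 and 256 CPM. The epithelial label thus had Cdh1, Cldn3, Cldn4 and 4 keratins beside the rule genes. Mesenchymal genes lay the other way, with 0 of 8 higher (background 3.67%) and 5 lower (2.25%), among them Zeb1. Their median log2 ratio was -1.13. Vim, the mesenchymal intermediate filament, was at 138 and 255 CPM.

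Wnt6 was accompanied by other Wnt ligands. Of 18 ligands besides Wnt6, 8 reached 10 CPM, and 4 were at least 2-fold higher in members (background 3.67%). They were Wnt10a, which lies beside Wnt6 on chromosome 1, Wnt3, Wnt7a and Wnt7b, all known as epithelial ligands. Wnt10a was at 19.7 and 1.36 CPM (14.4-fold, 12.1 to 17.2), Wnt3 at 14.9 and 1.65 CPM (9.04-fold, 7.58 to 10.8), Wnt7b at 24.1 and 2.88 CPM (8.36-fold, 7.31 to 9.57) and Wnt7a at 11.2 and 1.33 CPM (8.46-fold, 6.93 to 10.3). Wnt10a was 11.1-fold (7.1 to 18.4) and Wnt3 16.9-fold (9.04 to 35.5) higher than in barcodes with Epcam and Cldn7 only. Within the main cluster this was 9.88-fold (4.96 to 23.1) for Wnt10a, and 263 UMIs against 1 for Wnt3. Of all 365 other barcodes of the main cluster, 33.15% had a Wnt6 UMI. Wnt10a was at 27.9 CPM in the members of that cluster and 10.5 CPM in these others, and Wnt7b at 30.6 and 12.6 CPM. Against barcodes with Wnt6 only, Wnt10a was 9.62-fold (6.55 to 14.7) higher. Before thinning, at least 1 of the 4 ligands was detected in 521 members (48.2%) and 706 other barcodes (4.93%). At least 2 were detected in 228 members (21.1%) and 75 others (0.523%). The 4 were picked by their ratio in these same members, which were also deeper, so these shares are a description. At equal depth, at least 3 of all 18 ligands were detected in 20.4% of members and 12.9% of other barcodes. The median was 1 ligand in both groups. Wnt9b, which neighbours Wnt3 on chromosome 11, had 38 UMIs in members and 11 in the others.

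Wnt4, the ligand of ovarian supporting cells, did not go with these. Its level was 230 CPM in members and 249 CPM in the others, 117.3 CPM in barcodes with Epcam and Cldn7 only and 335.1 CPM in barcodes with Wnt6 only. Wnt5a, a ligand of mesenchyme, was lower in members at 24.6 against 50.5 CPM, and Wnt3a and Wnt8b had 0 UMIs in members. Of 10 receptor and secretion genes at 10 CPM, Fzd8 was higher (34.2 and 13.6 CPM) and Fzd4 lower (21.8 and 46.1 CPM). The other 8 were within 2-fold, as were 8528 of all 9065 genes. Of 10 target genes and antagonists at 10 CPM, 2 were higher (background 3.67%) and 0 lower (2.25%). The 2 were Rnf43, a ubiquitin ligase that removes Frizzled (12.4 and 3.01 CPM, 4.13-fold), and Notum, a deacylase that inactivates Wnt proteins (37.1 and 14.5 CPM, 2.56-fold). The list's median log2 ratio was -0.18.

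**Figure D2:**
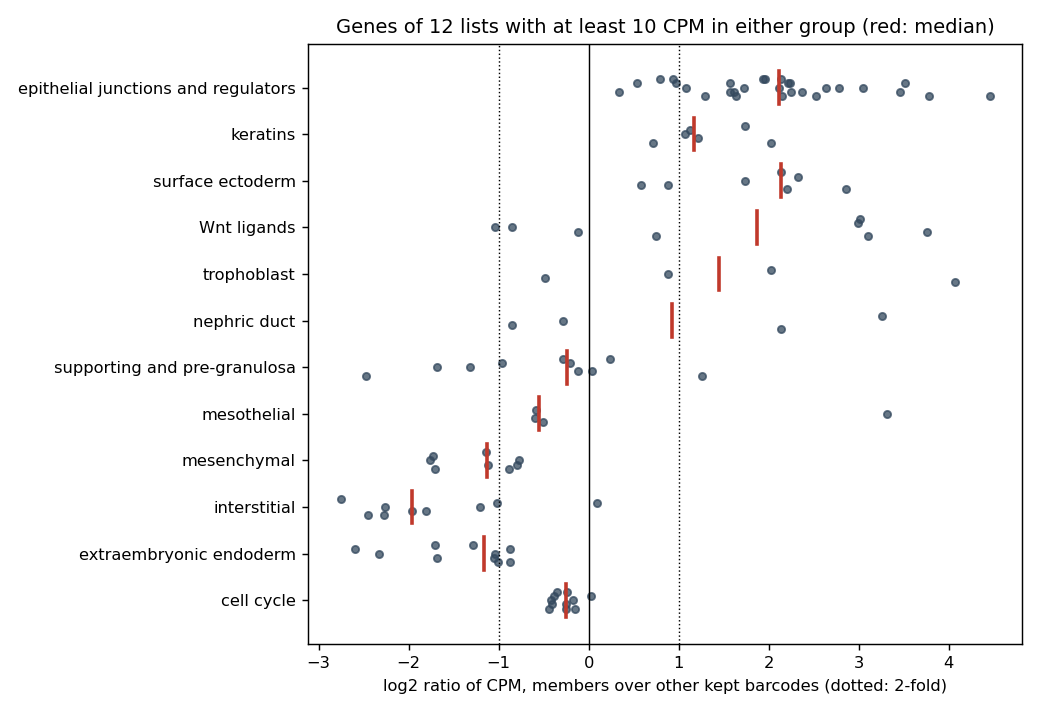
Log2 ratio of CPM (members over other barcodes) of each gene with at least 10 CPM in either group, for 12 lists, with each list's median in red and 2-fold as dotted lines. The epithelial list has its median at 2.11 and the Wnt ligands at 1.87, whereas the interstitial list has its median at -1.96.

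Genes that mark particular epithelia were mixed. Of 7 surface ectoderm genes at 10 CPM 5 were higher (background 3.67%). Among these, Tfap2b was at 42.6 and 5.78 CPM (7.37-fold) and Gata3 at 53 and 11.9 CPM (4.44-fold). Dlx3 was at 10.2 and 1.95 CPM and Krt15 at 17.6 and 5.23 CPM. Trp63, the master factor of stratified epithelium, was under 10 CPM, at 8.1 CPM in members and 0.334 CPM in the others, with 76.6% of its 205 UMIs in members; Krt5 was at 3.04 and 0.223 CPM. Of the trophoblast genes, Elf5 was at 13.4 and 0.703 CPM (19.1-fold, 15.1 to 24.2), while Prl2c2 and Prl3d1, hormones of trophoblast giant cells, had 0 UMIs. Of 4 nephric duct genes at 10 CPM, Wfdc2 and Gata3 were higher (background 3.67%), but Pax2 was at 0.826 CPM, Ret at 0.31 CPM and Cdh16 at 0. Upk2 and Upk3a, uroplakins of mature urothelium, had 5 and 13 UMIs in all members, beside 831 UMIs of Upk1a. The cells were therefore left without a tissue name.

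Markers of the gonadal types sought in the study were at or below the level of the other barcodes, with exceptions. Foxl2, the transcription factor of pre-granulosa cells, had 26 UMIs in all members, 1.34 CPM (0.876 to 1.97), against 1.74 CPM (1.53 to 1.97) in the others. Fst, the activin antagonist follistatin, was at 11.2 and 62.5 CPM (5.58-fold lower) and Gata4, a factor of the early gonad, at 11.2 and 36.1 CPM (3.24-fold lower). The lower Fst did not hold against each part of the other barcodes. In the 4874 other barcodes of the 2 clusters with the next most members (below), Fst was at 7.43 CPM, under the members. Gata4 was at 33.6 CPM and Rspo1 at 33.3 CPM there. Of 10 supporting cell genes at 10 CPM, 1 was higher (background 3.67%), namely Irx3 at 15.9 and 6.59 CPM. The 3 lower (background 2.25%) were Fst, Gata4 and the Wnt agonist Rspo1. Nr5a1 and Lhx9 stood at 0.155 and 0.0516 CPM in members. Wt1, a factor of gonad and mesothelium, was 1.94-fold (1.86 to 2.03) lower in members, at 102.9 CPM, and was detected in 584 of them. Upk3b, a mesothelial marker, was at 85.9 and 122 CPM, whereas Msln, also mesothelial, was at 21.1 and 2.03 CPM (10.4-fold higher).

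Interstitial genes were lower in 8 of 9 (background 2.25%), the exception being Nr2f2 at 293 and 274 CPM. Kdr, an endothelial receptor, was at 27.7 and 63 CPM, and the endothelial gene Emcn had 0 UMIs in members. Extraembryonic endoderm genes besides those of the rule were lower in 8 of 10 at 10 CPM (background 2.25%), among them Rbp4 at 24.1 and 146 CPM. The rule itself favours that direction. Of the rule's own endoderm genes, Lama1 was at 19.2 and 132 CPM in members and others and Cubn at 3.2 and 35.2 CPM. Sox17 was close, at 36.5 and 38 CPM, and Foxa2 was higher in members, at 30.4 and 17.1 CPM. In members of the main cluster Sox17 was at 46.2 CPM and Foxa2 at 42.25 CPM. Of the blood genes, 5 of 8 had 0 UMIs in members, Hba-a1 among them, and Cd68 was at 16.9 and 7.76 CPM. Cell cycle genes were within 2-fold in 11 of 11 (median log2 ratio -0.26), as were 8528 of all 9065 genes. Cd63, the surface protein by which the study sorted cells, was at 396 CPM in members and 469 CPM in the others and was detected in 90.2% and 92.1% at equal depth.

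V580 contains a retinoic acid receptor agonist, and 14 genes of the retinoic acid response were measured. Of these 14, 2 were at least 2-fold higher in members (background 3.67%) and 2 lower (2.25%). Crabp2, an intracellular carrier of retinoic acid, was at 70.6 and 32.7 CPM and Hoxb1 at 10.5 and 4.14 CPM, both over 2-fold higher in members. Cyp26a1, which degrades retinoic acid, was at 54.1 and 121 CPM and the carrier Crabp1 at 8.77 and 25.1 CPM, both lower, and the list's median log2 ratio was 0.27. Stra8, a retinoic acid target known from germ cells entering meiosis, was at 27.4 and 19.8 CPM (1.38-fold). Of 21 Hox genes at 10 CPM, Hoxb1 alone passed 2-fold, and 8528 of all 9065 genes were within it. Hoxa5 had the highest level at 190.8 and 148.8 CPM. Ligands of the germ cell niche were within 2-fold in 6 of 6, near the share of all genes. Among them were Bmp2 (14.6 and 12.4 CPM), Fgf9 (23.6 and 23.8 CPM) and Kitl (12.2 and 11.8 CPM).

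Placed among 12 clusters of the whole library, 687 members (63.6%) fell into 1 cluster of 1052 barcodes, with Mal, Cxcl15, Upk1a and Stra8 among its leading genes, which held 52% of all Wnt6 UMIs. Another 116 members were in a cluster led by Sv2a, Rspo1 and Lrrn4, with Upk3b, and 103 in a cluster led by cell cycle genes. The members outside the main cluster were weaker by the rule. Of these 394, 41.6% had a single Wnt6 UMI and 45.2% a single Cldn7 UMI, against 12.7% and 7.13% of the 687. Doublets were scored by simulation, and 16.2% of the 394 but 4.22% of the 687 were in the highest 5% of scores, and the part of doublets in the values of the 394 was not tested. No barcode was called a doublet by the automatic threshold, so that the call was not used.

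The split showed in levels as well. Wnt6 was at 384.5 CPM in members of the main cluster and 147.6 CPM in the other members, Upk1a at 59.4 and 13.6 CPM, Wfdc2 at 1268 and 251.2 CPM, and Wnt10a at 27.9 and 5.02 CPM. In reverse order, Wt1 was at 59.6 and 180 CPM and Upk3b at 65.7 and 121.8 CPM, both higher in the members outside the main cluster. Krt8 was at 812.9 and 778.7 CPM, close in both. Barcodes of the main cluster that were not members also held junction genes. Cdh1 was at 113.5 CPM in the members of that cluster and 91.3 CPM in its other barcodes. Espn was at 145.9 and 122.8 CPM and Cldn3 at 205.1 and 117.4 CPM, in the same order. With the members restricted to the main cluster and the other members counted among the rest, an alternative chosen after the values were seen, 479 genes were at least 2-fold higher and 345 lower.

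Clustering the members alone gave 7 clusters. They are described by their leading genes and by other genes named above, and since the same counts formed them no test was made. Cluster 1 (305 members) was led by Daam2, Tac2 and Rspo3 and held Wt1 at 149.2 CPM and Wnt4 at 315 CPM. Cluster 2 (272 members) was led by mitotic genes such as Aspm and Cenpf, with Mki67 at 405.4 CPM against 24.5 CPM in cluster 1. Cluster 3 (266 members) was led by Lurap1l, Entpd3 and Tspan8. Its leading genes also held Sox17, an endoderm gene of the rule, at 83 CPM against 21.4 CPM in the other members. Cluster 3 had the highest Wfdc2 (1989 CPM), Upk1a (72.5 CPM), Msln (45.6 CPM) and Krt19 (930.0 CPM) of the 7, with Wt1 at 27.5 CPM.

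Cluster 4 (89 members) was led by Trp63, Tfap2a, Galnt18 and Wnt3, and Trp63 was at 75.3 CPM there and at 5.99 CPM or less in each other cluster. Krt5 was at 32.8 CPM, Krt15 at 93.5 CPM, Tfap2b at 205.2 CPM, Wnt3 at 86.8 CPM, Stra8 at 116.5 CPM and Wnt6 at 594.3 CPM, each the highest of the 7 clusters. Its median depth was 16434 UMIs, near that of all members.

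The 3 smallest clusters stood apart in other ways. Cluster 5 (54 members) had a median of 4790 UMIs and was led by Acta2, smooth muscle actin. Cluster 6 (52 members) had a median of 4828 UMIs, a median mitochondrial share of 11.6%, and endoderm genes such as Rbp4 among its leading genes, with Col4a1 at 1411 CPM and Lama1 at 110.1 CPM. Cluster 7 (43 members) was deep, with a median of 24046 UMIs, and was led by Serpinb9e, Plac1 and Hand1. It had Rhox6 at 1770 CPM, Rhox9 at 1653 CPM, Sct at 1002 CPM, and the trophoblast genes Tfap2c at 167.8 CPM and Gata3 at 121.7 CPM. Elf5, also a trophoblast gene, was at 1.44 CPM in cluster 7 and highest in cluster 3, at 27.7 CPM. Wnt6 was lowest in cluster 7 at 61.2 CPM, and Wnt3 had 0 UMIs there.

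**Figure D3:**
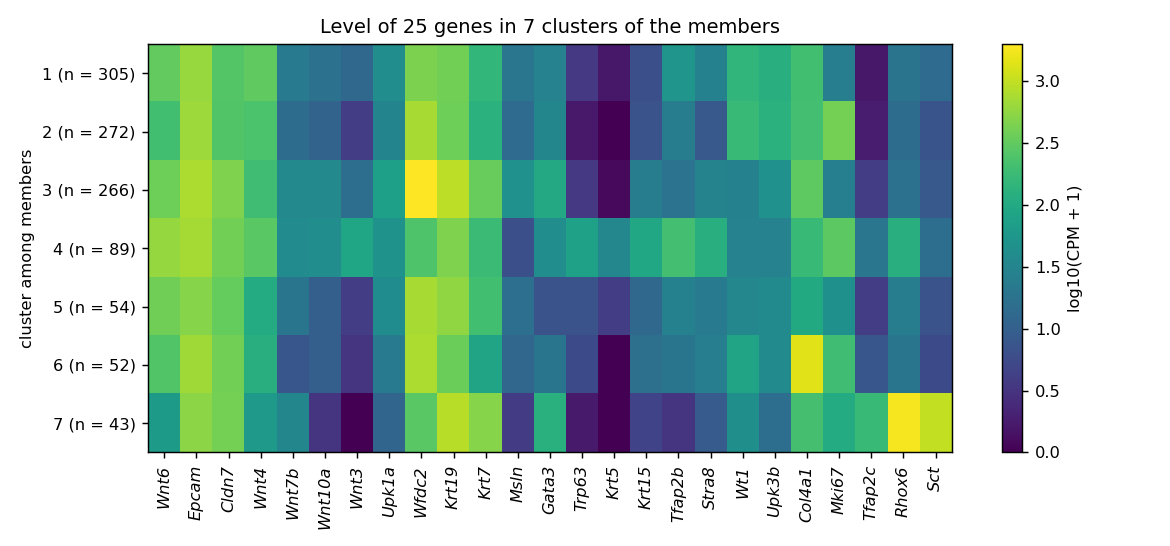
Level of 25 genes as log10(CPM + 1), by colour, in the 7 clusters of the members, with the number of members on the left. Trp63 and Krt5 are brightest in cluster 4, Mki67 in clusters 2 and 4, Wfdc2 in cluster 3, and Rhox6 and Sct in cluster 7.

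The bulk libraries are other samples than the 10x library, and the same genes were followed there. Their values are FPKM (fragments scaled to transcript length and to library size), with a depth per library, recovered from the smallest steps of the values, between about 19600000 and 28300000 reads. In bulk samples fewer cells of a type and less RNA per cell cannot be told apart. The test was limma-trend, run on log2(FPKM + 1), and fold changes are on that scale, which understates changes of low genes. A gene was called at a Benjamini-Hochberg adjusted p below 0.05 over 11512 genes and at least 2-fold. Nothing in the labels says that libraries of a group came from separate cultures or litters, so that the p-values measure the spread between these libraries, which may be technical. The 4 comparisons share the D6 libraries.

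Wnt6 was at 74, 72 and 71.2 FPKM in the V580 D6 libraries, 45.5, 45.7 and 41.7 FPKM at D4, 32.5, 27.5 and 28.7 FPKM at D8 and 18.7, 13.6 and 17.4 FPKM at D10. D6 was thus the highest of the 4 days, with no overlap between days. In E12.5_GC the libraries read 152, 223 and 138 FPKM, above every V580 library, and at 24 h and 48 h the controls and V580 were between 1.19 and 6.76 FPKM. From D4 to D6 the log2 fold change was 0.70 (SE 0.146, limma adjusted p = 0.0013), under 2-fold, and Wnt6 fell by 1.27 on the log2 scale from D6 to D8 (adjusted p = 9.12e-06) and by 2.08 from D6 to D10 (adjusted p = 2.5e-08). Against E12.5_GC, Wnt6 at D6 was lower, with a log2 fold change of -1.20 (adjusted p = 4.18e-06). Without E12.5_GC replicate 2, the library of 223 FPKM, it was -0.99, under 2-fold (adjusted p = 1.34e-06).

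Epcam and Cldn7 did not follow Wnt6. Among D4 to D10, Epcam was highest at D4 (155, 159 and 154 FPKM). At 48 h it read 212 and 210 FPKM in the controls and 155 and 159 FPKM in V580. The Epcam libraries read 90.8, 80.4 and 83.3 FPKM at D6, 58.9, 60.5 and 56.5 FPKM at D8 and 45.1, 47.1 and 42.7 FPKM at D10. Cldn7 read 50.6, 49.8 and 52 FPKM at D4, 48.5, 43.2 and 46.4 FPKM at D6, 33.6, 30.5 and 34.1 FPKM at D8 and 36.3, 36.7 and 34.7 FPKM at D10. Epcam and Cldn7 were lower at D8 and D10 than at D6 by less than 2-fold (limma adjusted p between 7.49e-07 and 0.0173), but Cldn7 lost this with a pseudocount of 0.1 (adjusted p = 0.0916 at D8 and 0.18 at D10) and, at D10, without V580 D10 replicate 3 (0.0562) or V580 D6 replicate 1 (0.0629). Between D4 and D6 the Cldn7 libraries did not overlap, with a log2 fold change of -0.14 that had an adjusted p of 0.34 in the model of all 15 libraries and 0.0124 in a model of the 2 groups alone.

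In E12.5_GC, by contrast, Epcam read 6.33, 5.25 and 4.48 FPKM and Cldn7 1.07, 0.438 and 0.393 FPKM, far under any V580 library. The log2 fold changes of D6 against E12.5_GC were 3.77 (SE 0.0876, limma adjusted p = 6.6e-14) for Epcam and 4.87 (SE 0.114, adjusted p = 7.05e-14) for Cldn7. Wnt6 and the 2 epithelial rule genes thus stood in opposite order between the gonad and D6. In reads, as recovered from the steps, Cldn7 had 58, 20 and 15 reads in the 3 E12.5_GC libraries and 2152, 1870 and 2160 in the D6 libraries, whereas Wnt6 had 9252, 11476 and 5950 and 3698, 3502 and 3733. E12.5_GC replicate 1 had the highest Cldn7 and Cdh1 of its group. Blood and endothelial genes also separated these groups. Hba-a1, a globin, read 4045, 1559 and 967 FPKM in E12.5_GC and at most 0.111 FPKM at D6, and 6 of 7 blood genes and 6 of 7 endothelial genes were lower at D6 (background 8.11%). The part of blood and endothelial cells in this and the following comparisons with E12.5_GC was not tested.

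**Figure D4:**
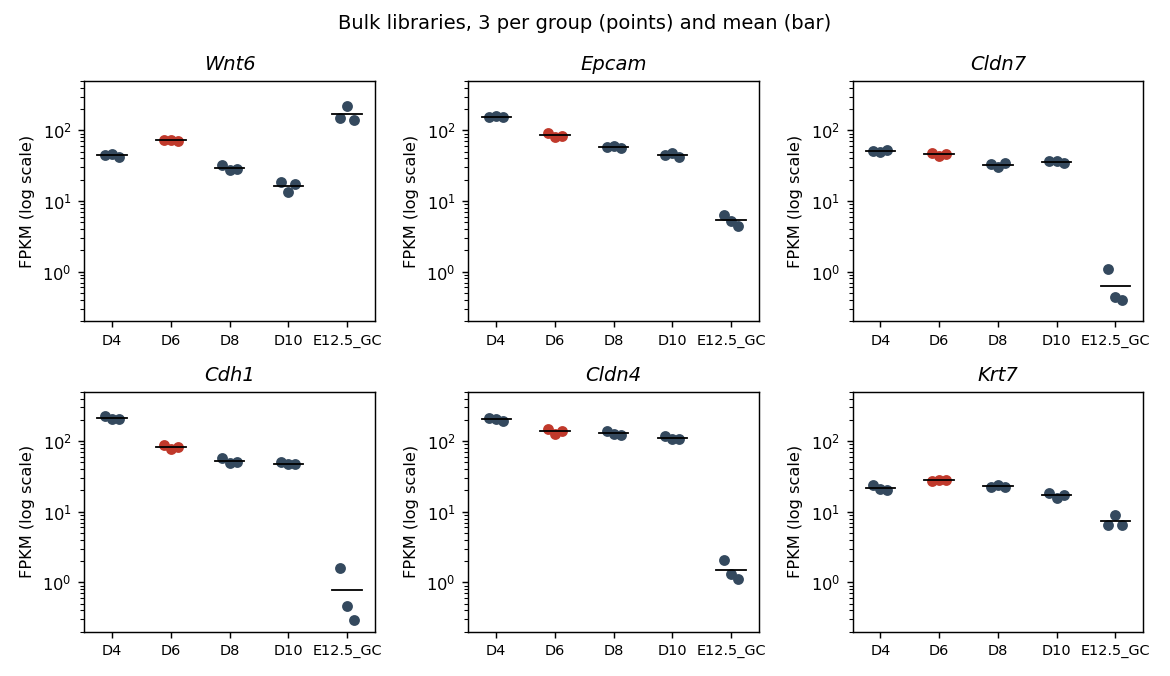
FPKM on a log axis in the 3 bulk libraries of V580 D4, D6, D8, D10 and E12.5_GC (points) with the group mean (bar), for the 3 rule genes, Cdh1, Cldn4 and Krt7. Wnt6 peaks at D6 among V580 days and is higher still in E12.5_GC, whereas Epcam, Cldn7 and Cdh1 are lowest in E12.5_GC.

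Of the 40 genes of largest ratio in members, 33 were in the FPKM table and tested, and the others, among them Grhl2, Wfdc2, Cldn6, Inava, Ap1m2 and 4631405K08Rik, were not analysed there. Against E12.5_GC, 27 of the 33 were higher at D6, where 7.06% of all genes tested were, and 1 was lower, where 8.11% were. The 40 genes were chosen by ratio and detection in V580 day 6 cells, and no gonad value was used. That choice itself favours D6 over E12.5_GC, so the count is a description. The median log2 fold change of the 33 was 2.38, against 0.03 over all genes. The 1 gene lower at D6 was Aldh1a1, at 7.25, 7.2 and 7.32 FPKM in D6 and 22.5, 32.1 and 19.1 FPKM in E12.5_GC (log2 fold change -1.60, limma adjusted p = 1.35e-07). Bspry, Espn, Trim2, Rragd and Arrdc1 were not called.

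Cdh1 read 88, 77.6 and 83.5 FPKM in the D6 libraries and 1.58, 0.457 and 0.29 FPKM in E12.5_GC (log2 fold change 5.63, limma adjusted p = 1.16e-12). Cldn4 read 147, 128 and 137 FPKM at D6 and 2.04, 1.29 and 1.1 FPKM in E12.5_GC (log2 fold change 5.82). Perp, a desmosomal tetraspan protein, read 51.8, 45.7 and 49.2 FPKM at D6 and 0.369, 0.328 and 0.209 FPKM in E12.5_GC (log2 fold change 5.26). Groups did not overlap in any of these 3 genes, but overlap was not counted over all genes tested. By limma at an unadjusted p below 0.05, 36.5% of all genes tested were higher at D6 and 33.5% lower. Wnt7b read 8.34, 7.09 and 7.61 FPKM at D6 and 0.353, 0.0783 and 0.104 FPKM in E12.5_GC, a log2 fold change of 2.89 (adjusted p = 5.27e-12), opposite in sign to that of Wnt6. Krt7 read 27.5, 27.7 and 27.8 FPKM at D6 and 6.38, 9.12 and 6.4 FPKM in E12.5_GC, a smaller difference (log2 fold change 1.80).

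Of 25 tested genes of the epithelial junction list 19 were higher at D6 than in E12.5_GC (background 7.06%) and 1 lower (8.11%). The lower one was Cgn, a tight junction adaptor, at 9.44, 8.21 and 8.23 FPKM in D6 and 40.9, 39.2 and 62 FPKM in E12.5_GC (log2 fold change -2.30). Supporting cell genes lay the other way, 14 of 15 lower (background 8.11%) and 0 higher (7.06%) by limma. At an unadjusted p below 0.05, 15 were lower and 0 higher, where 33.5% and 36.5% of all genes tested were.

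Between V580 days few of the genes passed 2-fold. Without the fold limit, at a limma adjusted p below 0.05, 7 of the 33 were higher (background 21.9%) and 14 lower (23%) from D4 to D6. From D6 to D8, 2 were higher (20.3%) and 19 lower (20.9%), and from D6 to D10, 2 higher (28.9%) and 22 lower (29.2%). The count higher from D4 to D6 was thus at the background share. With the limit, the calls were these. From D4 to D6, 3 of the 33 were higher (background 3.41%) and 2 lower (1.67%). Adh1 rose from 6.18, 6.71 and 6.52 FPKM to 21.2, 19.3 and 19.6 FPKM (log2 fold change 1.49, limma adjusted p = 0.00281), the iron exporter Slc40a1 rose by 1.75 and Slc16a12 by 1.31, on the log2 scale. Cdh1 fell by 1.35 from 228, 207 and 205 FPKM, and Ripply3, a transcriptional corepressor, fell by 2.12. The median log2 fold change of the 33 was -0.20.

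From D6 to D8, 0 of the 33 were called higher by limma (background 2.29%), with 2 higher at an unadjusted p below 0.05 and no fold limit (background 23.6%). The 2 called lower (background 0.252%) were Ripply3 and Raet1e, a ligand of the immune receptor NKG2D. Raet1e went from 15, 14.3 and 15 FPKM to 5.33, 5.3 and 5.37 FPKM (log2 fold change -1.32, limma adjusted p = 4.86e-07). From D6 to D10, 1 was higher (background 5.32%) and 3 lower (1.5%), the lower ones being Raet1e, Ripply3 and Slc40a1. The higher one was Upk1a, at 14.9, 12.53 and 14.4 FPKM on D6 and 56.3, 51.2 and 53.1 FPKM on D10 (log2 fold change 1.87, adjusted p = 8.2e-10). Upk1a thus rose while Wnt6 fell. Tfap2b, the surface ectoderm gene of cluster 4, read 2.18, 2.6 and 2.37 FPKM at D6 and 0.149, 0.0557 and 0.129 FPKM at D10 (log2 fold change -1.61, adjusted p = 7.67e-10), and Msln read 5.71, 4.34 and 5.04 FPKM and 31.9, 28.4 and 27.3 FPKM (log2 fold change 2.33, adjusted p = 1.03e-10).

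**Figure D5:**
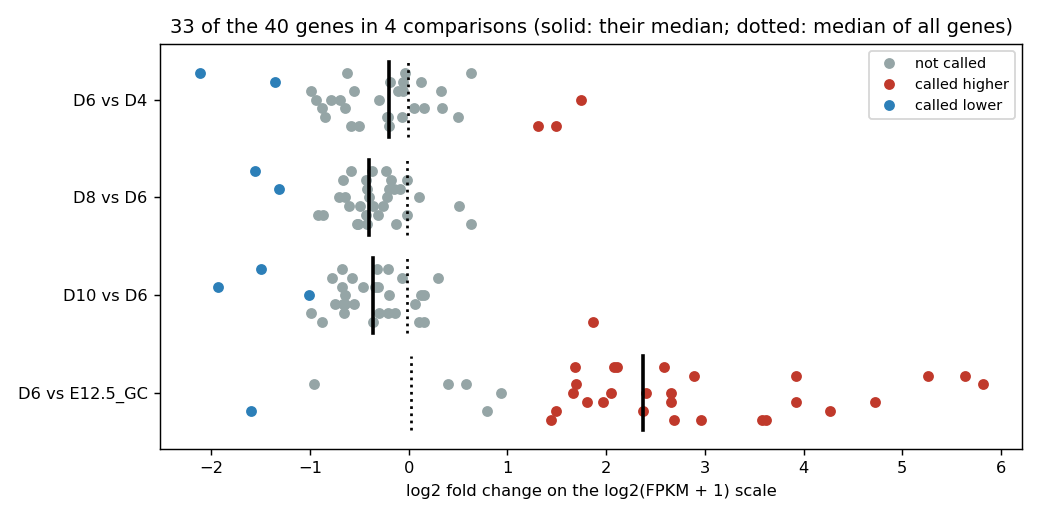
Log2 fold change of the 33 genes in the 4 bulk comparisons, each point a gene (red, called higher; blue, called lower), with their median (solid) and the median of all genes tested (dotted). The medians between V580 days lie between -0.41 and -0.20, whereas D6 against E12.5_GC has a median of 2.38 and 27 genes called higher.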

How the data were processed

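The authors deposited UMI counts per gene for the 10x sample (mm10, Cell Ranger per the methods) and FPKM per gene symbol for the bulk libraries; the submitters' processing notes name HISAT2, featureCounts and RSEM, and the tool behind the FPKM is not given in the sources used here. The study describes 10x sequencing in triplicate, but the count table held 1 set of barcodes. From the counts, UMIs were summed over members and over other barcodes, and clusters and doublet scores came from scanpy 1.11.5 and leidenalg 0.10.2 (12 clusters at resolution 0.5; members alone at 0.4). FPKM were tested with limma 3.58.1 in R 4.3.3 in 1 model of 15 libraries, for genes of at least 1 FPKM in at least 3 libraries. Within 0.1, 96.8% to 98.1% of the deposited values under 20 reads came out as whole reads.

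Named genes were the 20 of largest ratio among genes with a UMI in at least 25% of members, the 10 of smallest ratio among genes with a UMI in at least 25% of the others, the leading genes of each list, the rule genes and markers the study used; the first 40 were followed in bulk. Genes leading clusters, Adh1, Tfap2b, Msln, Perp, Cgn and Hba-a1 in bulk were chosen after their values were seen. The members and lists were chosen with earlier results of these data known. Some genes of these lists are not reported here. Both procedures were tested on simulated data.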

Additional observations from a re-analysis of the deposited data

How the results depend on the processing

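The 4 bulk counts are from 3 libraries a group and the 10x values from 1 library, so that the 10x ratios carry no replicate error. The number of members was 471 with 0 endoderm genes, 682 with 2 or more UMIs of each gene, 679 when the rule was applied after thinning, and 687 within the main cluster (added after seeing the data). At 50 CPM or more, 79 genes were at least 2-fold higher and 49 lower, because fewer genes were counted; with members of the main cluster only, 345 were lower. With a pseudocount of 0.1, 4 listed genes were called from D6 to D8. Without a fold threshold, 21, 21 and 24 were called from D4 to D6, D6 to D8 and D6 to D10, against backgrounds, higher and lower, of 21.9% and 23%, 20.3% and 20.9%, and 28.9% and 29.2%. Leaving out each library in turn gave 5 to 6, 2 to 2, 3 to 5 and 28 to 29 called genes in the 4 comparisons. Replicate numbers did not pair the samples (30 correlations between -0.43 and 0.386, 9 over 0.1), and with the number as a replicate block the calls were 5, 2, 4 and 28. Among 240 values of 30 genes in the 10x library, 0 reversed in direction, but 117 lay outside the counting interval of the main ratio and 123 inside it. The sizes of the 10x ratios thus depended on the setting more than their directions did. Among 132 values of Wnt6, Epcam and Cldn7 in bulk, 0 reversed and 125 kept their call. The other values were 6 that became called without the fold threshold and 1 that lost its call. Removal of called doublets was not run, since 0 were called; without the 5% of highest score there were 988 members.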
